A study of Homo sapiens with 2 samples.

Results

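Among the T-to-C sites that a PAR-CLIP experiment listed for METTL14, 228 of 5981 (3.81%) lay in 4 stretches of the genome that are crowded with sites and had been taken for copies of ribosomal RNA genes. They were chosen by position on hg19: sites between 133010000 and 133040000 on chromosome 2, 33962000 and 33966000 on chromosome 16, 24182000 and 24187000 on chromosome 19, and 10034000 and 10038500 on chromosome Y, on either strand. The stretches had been picked for their density in this same list, so their number of sites and their scores are given as descriptions, without tests. The cells were of the liver cancer line HepG2, a single group of 2 replicate libraries that shared all of the following. A stable lentiviral vector made them express METTL14 with an HA tag at its start and EGFP at its end, on top of their own METTL14, and cells with strong GFP signal were sorted. They took up 4-thiouridine at 200 µM for 16 h and were crosslinked with 3 exposures to 365 nm light at 0.15 J/cm2, after which HA beads pulled down the tagged protein and RNase T1, which cuts after G, shortened its RNA for small RNA libraries. No library without the tag or the bait, and no input RNA, was analysed here. There is 1 deposited list for the pair of libraries, so the spread between replicates could not be measured, and the depth of each library is unknown.

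METTL14 binds METTL3, and the pair writes N6-methyladenosine into messenger RNA. Ribosomal RNA is the most abundant RNA of a cell: RNA polymerase I reads a long precursor in the nucleolus, from which the 18S RNA of the small subunit and the 5.8S and 28S RNAs of the large subunit are cut out, in that order. Its known N6-methyladenosines in human cells are made by other enzymes, METTL5 on 18S and ZCCHC4 on 28S. The active genes lie in tandem arrays on the short arms of the acrocentric chromosomes, while diverged copies that are annotated as pseudogenes are scattered over other chromosomes. In PAR-CLIP a crosslinked 4-thiouridine is sequenced as C, so a listed site means that reads carried C at a base that is T in the genome.

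RefSeq names ribosomal RNA pseudogenes on all 4 chromosomes. They include RNA5-8SP5, a copy of 18S RNA and RNA28SP on chromosome 2, RNA5-8SP2 on chromosome 16, RNA5-8SP4 and copies of 28S RNA on chromosome 19, and RNA18SP2 and RNA5-8SP6 on chromosome Y. The sequences below, from GENCODE 29, were laid on the hg19 sites by the spacing of the sites, as described further on. RNA5-8SN2 is the 5.8S RNA of an active gene, and the other sequences are copies of it, shown because the site with the highest score in the list falls in one of them. In the copies, capitals mark the bases with a listed site; in RNA5-8SN2 they mark the bases that face a site in any of the 3 copies. The copies fall at chrY:10037764-10037915 (plus strand), chr16:33965426-33965577 (plus strand) and chr2:133010727-133010878 (minus strand).
RNA5-8SN2: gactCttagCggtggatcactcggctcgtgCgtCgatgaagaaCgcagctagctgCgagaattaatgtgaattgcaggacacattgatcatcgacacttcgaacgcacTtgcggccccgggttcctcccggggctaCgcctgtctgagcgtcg
RNA5-8SP6: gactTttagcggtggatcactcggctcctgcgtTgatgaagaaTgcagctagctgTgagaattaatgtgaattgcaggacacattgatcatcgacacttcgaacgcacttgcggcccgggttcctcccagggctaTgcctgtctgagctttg
RNA5-8SP2: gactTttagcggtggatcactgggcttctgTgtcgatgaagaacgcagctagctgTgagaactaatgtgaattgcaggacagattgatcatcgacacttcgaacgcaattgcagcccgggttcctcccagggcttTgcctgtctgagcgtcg
RNA5-8SP5: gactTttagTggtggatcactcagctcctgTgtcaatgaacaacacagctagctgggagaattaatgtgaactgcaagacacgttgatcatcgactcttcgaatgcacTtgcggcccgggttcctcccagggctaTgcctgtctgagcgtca

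For the 18S copy RNA18SP2, on the plus strand at chrY:10034865-10036712, 3 stretches of 21 nt are shown with the 18S RNA that faces them. They hold the 2 sites with the highest scores among those that face the 18S piece, and 1 site whose counterpart on chromosome 16 is also listed. Capitals mark the site and the base that faces it.
RNA18SP2 position 1268: ggcccggacaTggacaggatt
18S facing RNA18SP2 position 1268: ggcccggacaCggacaggatt
RNA18SP2 position 1498: cttagatgtcTggggctgcac
18S facing RNA18SP2 position 1498: cttagatgtcCggggctgcac
RNA18SP2 position 1076: cgatgccaacTggtgatgcag
18S facing RNA18SP2 position 1076: cgatgccgacCggcgatgcgg

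The 228 sites scored far above the rest of the list. The deposited score, a whole number of at least 3 of unstated unit, had a median of 137 (quartiles 23 and 1564.25) in the 4 loci and of 5 (quartiles 3 and 12) over the other 5753 sites. A score of at least 100 was reached by 120 of the 228 sites (52.6%) and by 467 of the others (8.12%). The lowest value, 3, was held by 8 sites of the 4 loci (3.51%) and by 1535 others (26.7%). Together the 4 loci held 41.8% of the summed score of the list.

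On chromosome 2, 95 of 96 sites were on the minus strand (99.0%, 95% Wilson interval 94.3 to 99.8%). These intervals cover the counting of sites only and treat sites as independent, although neighbours can lie on the same reads. The sites formed 4 blocks when neighbours up to 1000 nt apart were joined, here numbered 5′ to 3′ along the minus strand. Block 1, from 133039176 down to 133036280, held 58 sites with a median score of 125.5. Block 2 held 2 sites, at 133015212 with a score of 32 and at 133014828 with 3. Block 3, from 133013726 to 133012070, held 27 sites with a median of 345, and block 4, from 133010879 to 133010317, held 9 with a median of 21. RNA5-8SP5 fell in block 4, and no copy was placed on the other 3 blocks.

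The site with the highest score was 133039137 in block 1 (30229), and it held 14.7% of the locus score. Next came 133038368 (27303) and 133036530 (22556) in block 1, and 133012309 (21644) and 133012688 (18840) in block 3. The 5 together held 58.7% of the score of the locus. The single site on the plus strand, 133038188, had a score of 6. The longest group of sites with no gap over 30 nt was a group of 7, from 133039048 to 133039137.

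On chromosome 16, 47 of 48 sites were on the plus strand (97.9%, 89.1 to 99.6%), in 1 block that spanned 3112 nt from 33962614 to 33965725. The median score was 173. A single site, 33964035, had a score of 105697 and held 54.2% of the score of the locus. After it came 33963396 (11691), 33963248 (9995), 33964064 (9861) and 33963329 (9147). The site on the minus strand, 33963765, had a score of 28. The longest group held 5 sites, from 33963571 to 33963624.

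On chromosome 19, 50 of 52 sites were on the minus strand (96.2%, 87.0 to 98.9%), in 1 block of 3138 nt from 24186099 down to 24182962, with a median score of 187.5. Its score lay mostly in 2 sites, 24185007 with 361188 and 24184114 with 297706, while the next, 24184978, had 19256. After these came 24184691 (10220) and 24185504 (8350), and the 5 held 95.4% of the score of the locus. Both plus-strand sites lay close together, at 24183677 (351) and 24183696 (337). Here was also the longest group of the 4 loci, 9 sites from 24185989 to 24186099.

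All 32 sites on chromosome Y were on the plus strand (89.3 to 100%), in a block of 24 from 10034982 to 10036586 and a block of 8 from 10037647 to 10037899. The median score was 71 in the first block and 1438 in the second. The site at 10037768 had a score of 1855548, the highest of the list, and held 22.5% of the summed score of all 5981 sites. It was followed by 10037797 (405213) and, far below, by 10036132 (19737), 10037763 (10777) and 10036545 (7240). The second block thus held 27.6% of the list's summed score in 253 nt, against 0.455% for the first block.

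**Figure D1:**
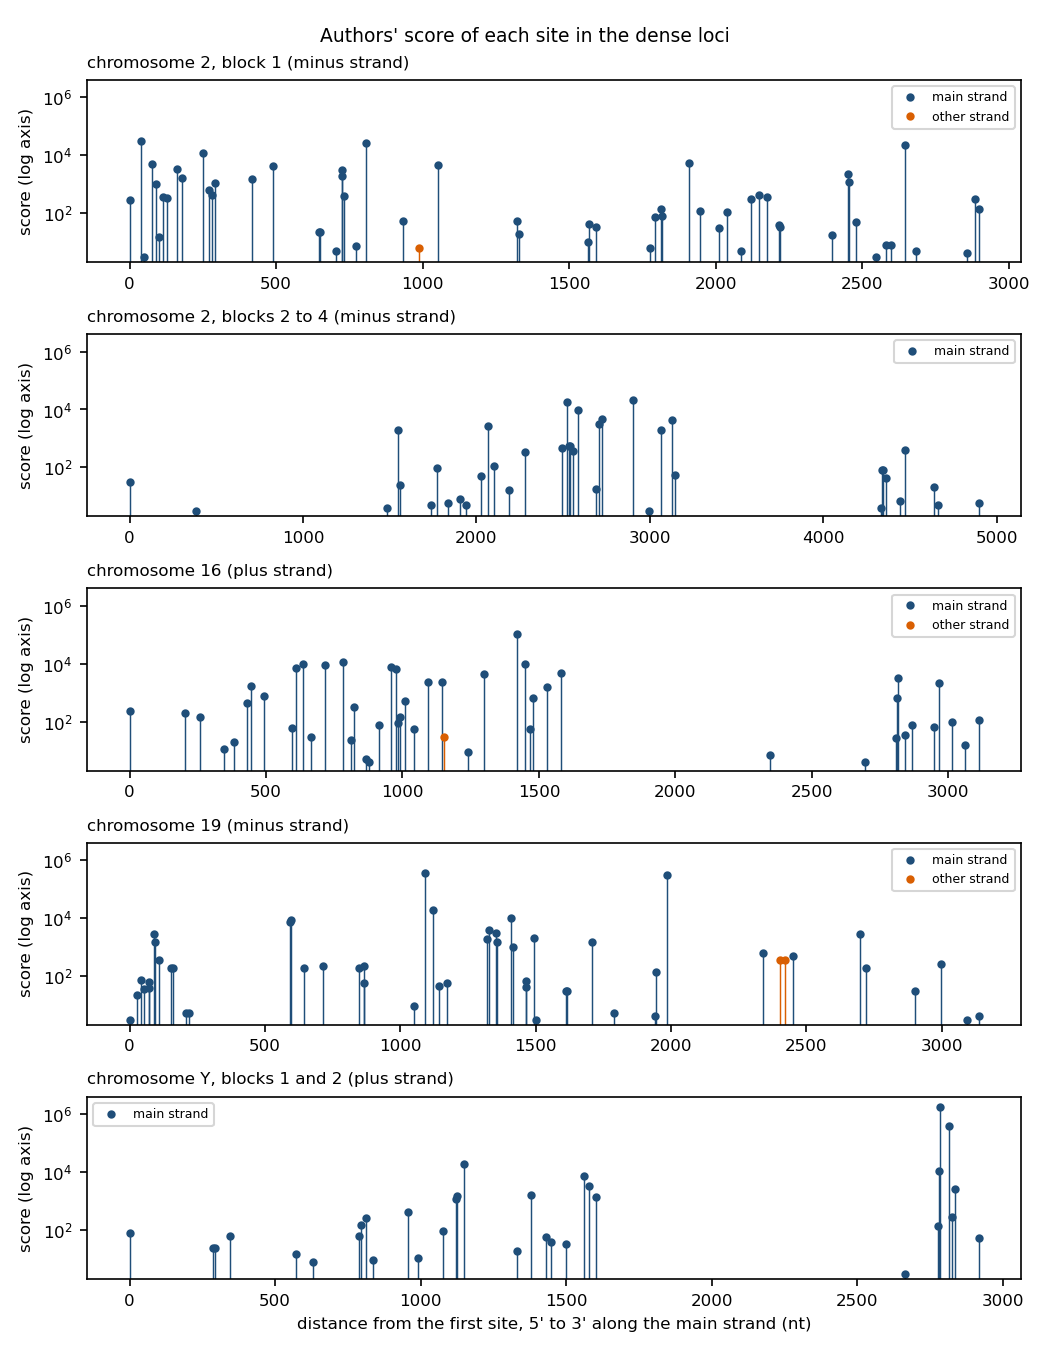
Authors' score of each site (log axis) against its distance in nt from the first site of the panel, read 5′ to 3′ along the main strand. Each stem is 1 site, blue on the main strand and orange on the other; 4 sites are orange, and the 2 tallest stems of chromosome Y, 1855548 and 405213, stand in its second block.

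The edges of the windows did not pass through runs of sites on chromosomes 2 and 19, where the nearest sites outside lay at least 134277 nt beyond the edge. Just outside the other 2 windows lay 1 plus-strand site each, 523 nt before the window of chromosome 16 (33961477, score 3) and 479 nt before that of chromosome Y (10033521, score 10). The outermost sites inside were 33962614 (231) and 33965725 (111) on chromosome 16 and 10034982 (79) and 10037899 (51) on chromosome Y. On chromosome 2 they were 133010317 (6) and 133039176 (290), and on chromosome 19 they were 24182962 (4) and 24186099 (3).

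Sites at shared positions were sought by reading each locus 5′ to 3′ and counting, for every shift between 2 loci, how many main-strand sites coincided. Chromosomes 16 and Y stood apart, with 8 sites at the best shift against 4 at the next best shift more than 100 nt away. These were 8 of the 47 main-strand sites of chromosome 16 (17.0%) and 8 of the 32 of chromosome Y. A second shift, 11 nt shorter, held 6 further pairs, all in the second block of chromosome Y. In the other 5 pairs of loci the margin was smaller: 6 against 5 for chromosomes 2 and 16, 6 against 4 for 16 and 19, 5 against 4 for 2 and 19, 4 against 3 for 19 and Y, and 4 against 4 for 2 and Y, where 3 shifts tied. These are counts at the best of 1268 or more shifts, so a few coincidences are found for any pair of loci.

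Scores at matched sites of chromosomes 16 and Y differed, and at both shifts sites of either direction were found. With so few pairs, whether the direction differs between the 2 shifts was not tested. At the first shift 6 of 8 sites scored higher on chromosome 16, by ratios from 1.43 to 179 over the 8. The widest was 33964064 (9861) against 10036413 (55), and the closest was 33964082 (53) against 10036431 (37). At the second shift 4 of 6 scored higher on chromosome Y, with ratios from 1.29 to 588. There the widest was 10037768 (1855548) against 33965430 (3155), and the closest was 33965561 (66) against 10037899 (51). The site with the highest score of chromosome 16, 33964035, had no partner on chromosome Y at either shift.

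**Figure D2:**
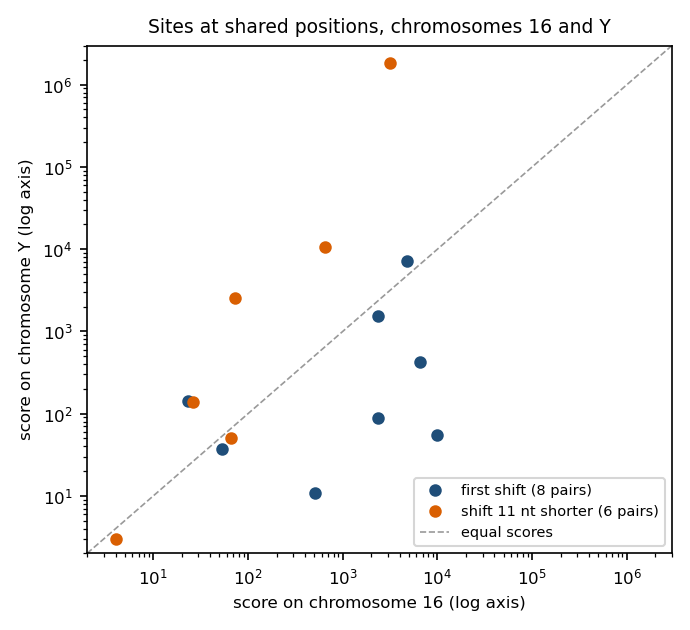
Score on chromosome Y against score on chromosome 16 (both log axes) for sites at shared positions, 8 at the first shift (blue) and 6 at the shift 11 nt shorter (orange). The dashed line marks equal scores; 6 of 8 blue points lie on the chromosome 16 side and 4 of 6 orange points on the chromosome Y side.

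In the other pairs of loci the scores at coinciding sites differed too. Their best shifts had little margin, so these sites need not be counterparts, and the ratios only describe the coincidences. For chromosomes 2 and 16 the ratio ran from 6.11 (133038242 with 55 against 33963855 with 9) to 2748 (133039137 with 30229 against 33962960 with 11). For chromosomes 2 and 19 it ran from 2.25 (133039014 with 3380 against 24186005 with 1502) to 253 (133037400 with 6 against 24184391 with 1518). Chromosomes 2 and Y gave 1.67 (133010869 with 83 against 10037759 with 139) to 63.9 (133012523 with 18 against 10036105 with 1150). The placements described further on do not make 133010869 and 10037759 counterparts. They put the first at position 10 of RNA5-8SP5 and the second at -4, before the first base of RNA5-8SP6. Chromosomes 16 and 19 gave 2.12 (33963599 with 90 against 24185938 with 191) to 36.8 (33963591 with 6553 against 24185946 with 178). Chromosomes 19 and Y gave 1.59 (24184926 with 54 against 10036483 with 34) to 520 (24184978 with 19256 against 10036431 with 37).

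Some sites had a partner at the best shift of more than 1 pair of loci, though the shifts of the pairs did not form 1 common frame. The site 10035940 on chromosome Y (429), printed above as position 1076 of RNA18SP2, paired with 33963591 on chromosome 16 (6553) and with 133012688 on chromosome 2 (18840), and 33963591 in turn paired with 24185946 on chromosome 19 (178). These 4 sites are linked through 3 of the 6 pairs of loci only: they are not partners at the best shifts of chromosomes 2 and 16, 2 and 19, or 19 and Y. In the same way 10035973 on chromosome Y (11) paired with 33963624 on chromosome 16 (504) and with 133012655 on chromosome 2 (369), which lies in block 3, whereas all 6 sites at the best shift of chromosomes 2 and 16 lie in block 1 of chromosome 2. The links to chromosomes 2 and 19 rest on shifts with little margin. Other chains were 33963855 (9), 24185233 (221) and 133038242 (55), and 33964082 (53) with 10036431 (37) and a pair of chromosome 19 sites, 24184978 (19256) and 24185455 (184), which cannot both be its counterpart.

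The label of the loci was then checked on sequence. A T-to-C site must lie on a T, so each copy was slid along the main-strand sites of its chromosome until every site inside it fell on a T. RNA18SP2, read antisense to the GENCODE transcript that covers it, took all 24 sites of the first chromosome Y block on T, although T makes up 24.6% of its bases. Of 244 shifts with as many sites inside, this was the only one with all on T, and the best of the others more than 100 nt away had 13. RNA5-8SP6 took 5 of 5 sites on T, at 1 of 119 such shifts. The first bases of the 2 copies then lay 2899 nt apart, and GENCODE places them 2899 nt apart on its own build. The label thus held for both blocks of chromosome Y.

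**Figure D3:**
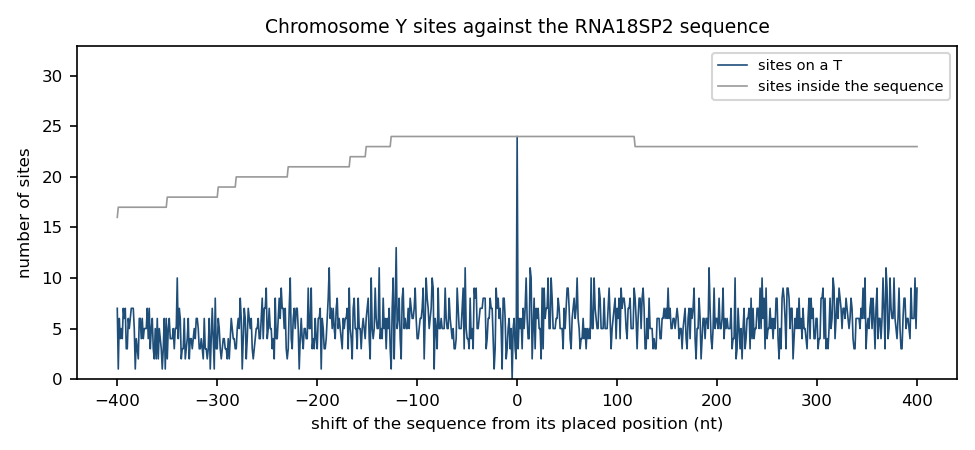
Number of chromosome Y sites that fall on a T of RNA18SP2 (blue) and number inside its sequence (grey) as the sequence is shifted, in nt from its placed position. All 24 sites fall on a T at a shift of 0, and 13 or fewer do at every other shift drawn.

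The placements on the other chromosomes had less to rest on. RNA5-8SP2 on chromosome 16 was placed by carrying the place of RNA5-8SP6 over by the shift between chromosomes 16 and Y. The shift uses no sequence, but the place of RNA5-8SP6 had been chosen for sites on T. Of the sites inside RNA5-8SP2, 4 of 4 then fell on T, which makes up 25.7% of its bases. Those at positions 5, 56 and 136 are partners of sites on T in RNA5-8SP6, so the count is no independent check. Of 911 shifts with 4 or more sites inside, 2 had all on T. RNA5-8SP5, with T at 25.7% of its bases, took 5 of 5 sites on chromosome 2 at 1 of 706 shifts. Its place was chosen for this count, and with so many shifts tried, 1 with all on T may be a coincidence. RNA5-8SP4 could not be placed on chromosome 19, since 3 shifts tied at 4 of 4. Neither a 28S RNA sequence nor hg19 sequence was used here, so for chromosome 19 and for blocks 1 to 3 of chromosome 2 the label rests on RefSeq names on the same chromosome alone. On chromosome 16, 4 of the 48 sites lay inside RNA5-8SP2, the only copy named above for that chromosome. For its other sites the label was not checked by placing a copy.

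Nearly every site in the placed copies lay at a base where the copy has T and the ribosomal RNA of the active genes has C. The copies were aligned to 5.8S RNA and to the 923 nt of 18S RNA at hand (positions 754 to 1676), and substitutions are written as the copy's base, the position counted from 1 at the copy's 5′ end, and the ribosomal RNA's base. Of the 30 sites on aligned bases, 29 faced a C (96.7%, Wilson interval 83.3 to 99.4%). Over all aligned T bases of the 4 copies, 43 of 353 (12.2%) faced a C. Of the 298 bases that are T in both the copy and the ribosomal RNA, 1 had a listed site. The outcome depends on where RNA5-8SP2 was placed. Under the first placement tried, the shift with most sites on T above the share of T, that copy lay at 33963516 with 5 of 7 sites on T and 1 of 7 facing a C, and the count over all copies was 26 of 33 (78.8%, 62.2 to 89.3%). The requirement of every site on T was set after these values had been seen, and rough hg19 positions of these pseudogenes were also known. The other 3 copies fell at the same place under both rules, and without RNA5-8SP2 the count was 25 of 26 (96.2%, 81.1 to 99.3%).

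On the Y copy of 5.8S, RNA5-8SP6, which is 94.1% identical to 5.8S RNA, all 5 sites faced a C, where 14.6% of its T bases do. They were T5C with a score of 1855548, T34C with 405213, T44C with 292, T56C with 2584 and T136C with 51. The site with the highest score of the whole list is therefore 1 of these 5. The only other base of this kind in the copy, T151C, had no listed site. RNA5-8SP2, 91.4% identical to 5.8S, had sites at T5C (3155), T31C (33), T56C (73) and T136C (66), all 4 facing a C against 12.8% of its T bases, and none at T27C. RNA5-8SP5, 88.8% identical, had T5C (80), T10C (83), T31C (41) and T136C (395), with 12.8% again the share over its T bases. Its remaining site, at position 109 with a score of 7, faced a T, and T104C had no site.

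By position in the copy, 2 bases carried a site in all 3 copies, and the order of the scores differed between them. At position 5 the scores were 1855548 on chromosome Y, 3155 on chromosome 16 and 80 on chromosome 2. At position 136, which faces base 137 of 5.8S, they were 51, 66 and 395 in the same order. Position 56 was listed on chromosomes Y (2584) and 16 (73), where both copies have T facing C, and position 31 on chromosomes 16 (33) and 2 (41). The base just before the printed sequences, position 0, was listed on all 3 as well, with 10777, 648 and 4, and the base at -4 on chromosomes Y (139) and 16 (26). RefSeq starts 5.8S 1 base before the GENCODE model, so position 0 belongs to the RNA, but its sequence was not used here. RNA5-8SP2 was placed by a shift chosen because sites of chromosomes 16 and Y coincide there. Sharing between these 2 chromosomes at positions -4, 0, 5, 56 and 136 therefore follows from the placement and is no separate result.

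In RNA18SP2 the 16 sites on the aligned part all faced a C (80.6 to 100%), against 11.5% of its 234 aligned T bases. Their scores ran from 8 at T749C to 19737 at T1268C, and those at T1498C (1651), T1243C (1542) and T1241C (1150) also passed 1000. Of 27 such bases, 11 had no listed site. The other 8 of the 24 sites lay outside the 18S piece, among them 10036545 (7240) and 10036561 (3359).

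**Figure D4:**
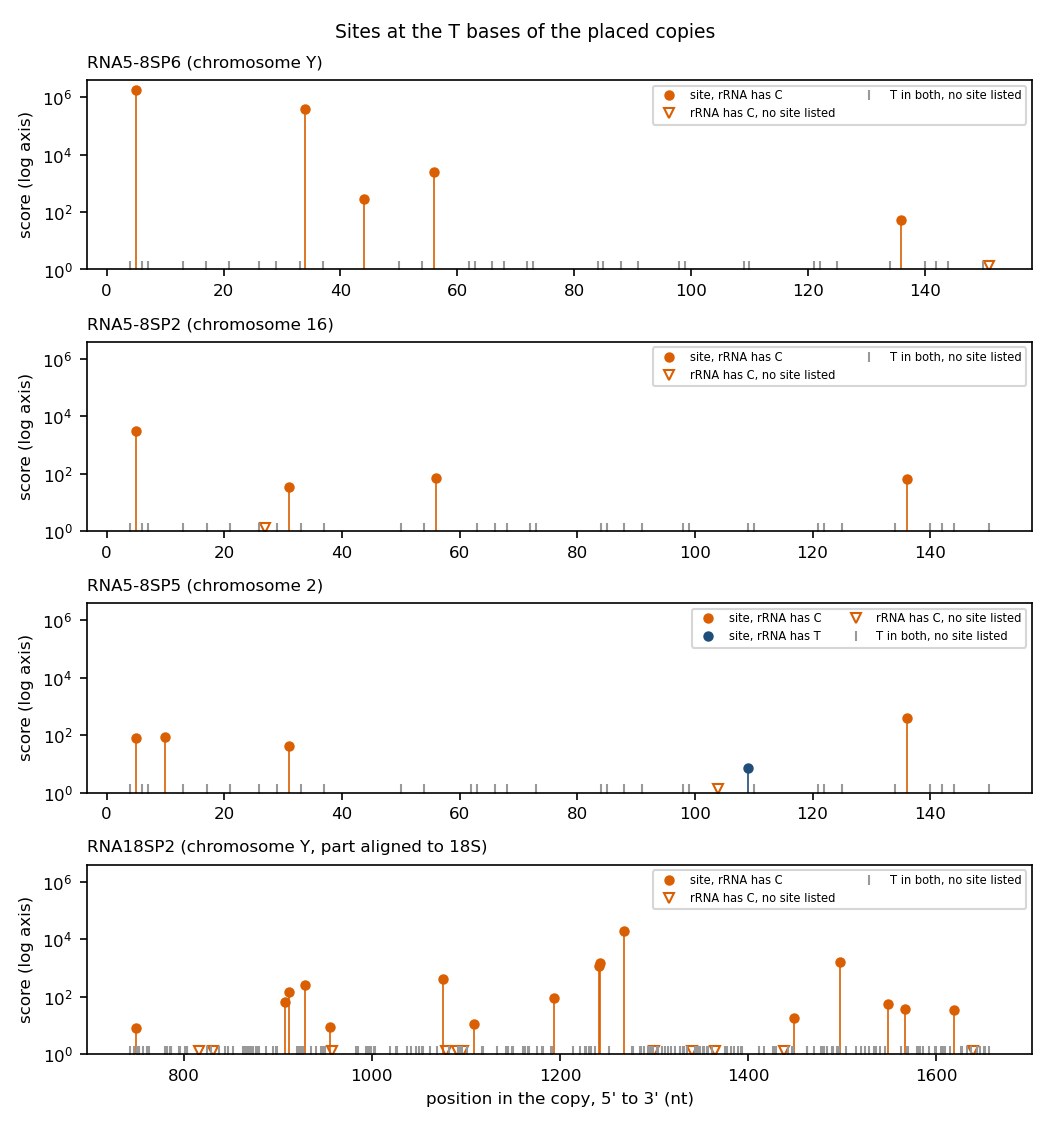
T bases of the 4 placed copies that were aligned to the ribosomal RNA, by position in the copy (nt), with the score of each listed site on a log axis. Filled orange points are sites where the ribosomal RNA has C (29), the blue point is the site where it has T (1), open triangles are such C bases with no listed site (14), and grey ticks are bases that are T in both with no site.

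No sequence of an 18S copy on chromosome 16 was used here, so its sites were set against 18S RNA directly, at the shift with most sites on C above the share of C. At that shift 17 of the 23 sites inside the piece faced a C, against 12 of 18 at the next best, with C at 24.8% of its bases. The first 13 sites, from 18S position 783 to 1128, all faced a C, and 4 of the 10 after them did. The shift was chosen for this count, so the count is a description and places no copy. The slide allowed no gaps, and past 18S position 1128 it departed from the alignment of RNA18SP2. It put 33963709 on position 1213 and 33964064 on 1568, while their first-shift partners on chromosome Y faced 1205 and 1565. The site 33964082 was put on a T at 1586, while its partner faced a C at 1583. The site with the highest score of the locus, 33964035 (105697), lies in that part. This shift put it on a T, at 18S position 1539, so the base it faces is not known. Of the 23, 3 were put on the same 18S base as a chromosome Y site: 931 (scores 23 and 144), 1095 (6553 and 429) and 1128 (504 and 11). All 3 are pairs of the first shift between chromosomes 16 and Y. Further pairs of that shift lie past position 1128, where the slide without gaps could not bring them to a common base.

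The other 5 blocks tried this way gave margins that were smaller or not much smaller. Block 1 of chromosome 2 had 14 of 23 sites on C against 10 of 15 at the next best shift, block 3 had 9 of 15 against 8 of 11, and both sites of block 2 could be put on C at more than 1 shift. Chromosome 19 had 12 of 20 against 11 of 17. The first block of chromosome Y had 11 of 16 against 9 of 13. That shift put 10035772 on 18S position 927, where the placed copy RNA18SP2 has it too. It put 10035613 on 768 and 10036058 on 1213, however, where the aligned copy has 766 and 1205. All 16 sites faced a C in that alignment, so the slide without gaps misplaced sites of this block.

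The 29 sites that faced a C held 66.6% of the summed score of the 228 sites and 27.9% of that of the list; without the 2 with the highest scores, T5C and T34C of RNA5-8SP6, 0.390%. A read of unconverted ribosomal RNA that is aligned to a copy carries C at such a base, as does a read with a converted 4-thiouridine of the copy's own RNA. The list gives no count of reads for either, and how reads with several matches were treated was not given in the labels or processing notes. Which RNA the reads came from was not tested. The remaining 198 sites, among them both high sites of chromosome 19 and the highest of chromosomes 2 and 16, were not on an aligned base of a placed copy. For them a facing base was read only at the shifts over 18S RNA given above, which allow no gaps.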

How the data were processed

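PAR-CLIP was done on 2 HA-METTL14 libraries. The genome build hg19 and the tools Bowtie 1.1.2, cutadapt 1.13 and FastQC 0.11.5 are named per the submitters' processing notes; site names in the list hold the word rbsSeeker. Not given in the sources used here were the pooling of the libraries, the threshold, the settings and the handling of reads with several matches. Per the deposited file, the authors' score is a whole number of unknown unit, and it was used only to describe and rank sites. The middle of each 201 nt interval was taken as the site (1-based). The windows and lists were chosen with earlier results of these data known. Sites named are, in each window, the 5 with the highest score, those off the main strand, matched sites with the highest and lowest ratio, those shared by 3 or more loci, window edges and longest groups.

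Sequences are GENCODE 29 transcripts (GRCh38), so no coordinates were joined. In all, 5 copies were slid over the sites for T and 6 blocks over 18S RNA for C. RNA18SP2 was tried first in the transcript's own orientation, which gave no placement, and trials with other GENCODE transcripts near such copies and with an alignment that allowed gaps were dropped. The 3 transcripts of 5.8S RNA, and the 3 holding the 18S piece, were identical. Alignment used Biopython 1.88 (match 2, mismatch -3, gap open -6, gap extension -1, free end gaps). Intervals are from statsmodels 0.14.6. Shift counts, and placement by the first rule on RNA18SP2 with every site on a T, were tested on simulated data. The placement rule reported here, and placement of the 5.8S copies, were not.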

Additional observations from a re-analysis of the deposited data

How the results depend on the processing

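For 24 results, 47 alternatives were computed; in 36 the value stayed within the limit used, and in 11 it did not. The limit was 1.5 times for counts and medians, the 95% interval for shares of sites, and nearly no change for shares of the summed score; a copy that fell at another place also counted as outside it. Alternatives on the placed copies were chosen after seeing the data, as was the placement rule itself. Without its site with the highest score, the share of the list's summed score fell to 2.13% for chromosome 2, 1.098% for chromosome 16, 4.69% for chromosome 19 and 7.16% for chromosome Y. With same-strand groups within 30 nt taken as their highest score, the median of chromosome Y was 58.5, and the share of sites facing a C was 100%. With matches within 1 nt, chromosomes 2 and 19 shared 8 sites and chromosomes 19 and Y shared 7. Joining sites up to 2000 nt apart gave 5 blocks in place of 8. With each copy placed by most sites on T above the share of T, RNA5-8SP2 had 5 sites on T, and 78.8% of sites faced a C. No paired analysis was possible because there is only 1 group. Leaving out a replicate was not possible, since the list gives 1 value over both libraries. Depth is unknown, so a base without a listed site is not shown to be free of reads.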
